A study of Mus musculus with 24 samples.

Results

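Nuclear genes for oxidative phosphorylation were followed in 24 RNA-seq libraries from 6 mouse small cell lung cancer (SCLC) cell lines in which p53 could be restored. The genes were taken by symbol from the table of all libraries: those beginning with Ndufa, Ndufb, Ndufc, Ndufs or Ndufv, with Uqcr, with Cox4 to Cox8 or with Atp5, together with Sdha, Sdhb, Sdhc and Sdhd, leaving out names marked as pseudogenes. This gave 95 of the 25239 genes in the table, of which 38 belong to complex I, 8 are complex I assembly factors, 4 belong to complex II, 8 to complex III, 20 to complex IV and 17 to complex V. Ndufa4 and Ndufa4l2, named for complex I, were placed with complex IV, of which NDUFA4 is now regarded as a subunit.

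Each line came from a single tumor of a mouse homozygous for the Trp53 XTR gene trap allele (XTR/XTR) and for floxed Rb1 and Rbl2 (flox/flox each), with FlpO-ER at Rosa26. Cre from an adenovirus with a CMV promoter was used to delete Rb1 and Rbl2 and to trap Trp53, so all groups carry these deletions by design. In Control cells, given vehicle, p53 stayed trapped, and in Restored cells 4-hydroxytamoxifen activated the FlpO-ER recombinase, which excised the trap. Lines 4711-1, 4711-18 and 4716-11 are Type D, which die after restoration, and lines 4711-11, 4716-10 and 4716-14 are Type V, which remain viable. Each line gave 4 libraries at 72 h: Control, Restored, Control + CsA and Restored + CsA, where CsA is cyclosporin A, which binds cyclophilins. The 8 groups of type and treatment therefore hold 3 libraries each, 1 from each line, and the 3 lines of a type are always given below in the order just listed. Each line is 1 culture. Without a term for the cell line, p-values rest on the spread between lines within groups and treat the 4 libraries of a line as independent. With the cell line as a block, they rest on the spread left after each line's own level is taken out.

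The mitochondrial respiratory chain passes electrons from NADH through complex I, or from succinate through complex II, to complex III, then through cytochrome c to complex IV, which reduces oxygen. Complexes I, III and IV pump protons, and complex V, the ATP synthase, uses the returning protons to make ATP. Most subunits are encoded in the nucleus and imported, while a small core of complexes I, III, IV and V is encoded in mitochondrial DNA, which was not analysed here.

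Promoter sequence is shown for 4 genes described below. Atp5g1 and Sdhd fell on restoration in both types with the cell line as a block, and Ndufb6 rose. Cox6b2 was listed at or near 0 until p53 was restored. It entered the test through restored libraries alone, so nothing is read from its call. Each window is the 250 bases before the transcription start in RefSeq annotation of GRCm38.p6, written 5′ to 3′ on the strand of the gene, all of them on the minus strand. Capitals mark the ETS motif CCGGAAG, the core bound by GABP, a regulator of respiratory genes, on either strand.
Atp5g1, chr11:96075632-96075881: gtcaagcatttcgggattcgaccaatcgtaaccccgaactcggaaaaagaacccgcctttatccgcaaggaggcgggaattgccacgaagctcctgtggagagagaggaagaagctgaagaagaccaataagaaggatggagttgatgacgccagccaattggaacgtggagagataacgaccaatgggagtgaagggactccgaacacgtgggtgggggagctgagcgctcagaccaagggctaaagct
Sdhd, chr9:50603850-50604099: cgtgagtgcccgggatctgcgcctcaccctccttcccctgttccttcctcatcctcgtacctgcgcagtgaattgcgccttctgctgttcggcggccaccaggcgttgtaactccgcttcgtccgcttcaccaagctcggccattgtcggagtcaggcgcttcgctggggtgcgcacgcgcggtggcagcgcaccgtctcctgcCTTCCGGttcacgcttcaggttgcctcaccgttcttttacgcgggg
Ndufb6, chr4:40279422-40279671: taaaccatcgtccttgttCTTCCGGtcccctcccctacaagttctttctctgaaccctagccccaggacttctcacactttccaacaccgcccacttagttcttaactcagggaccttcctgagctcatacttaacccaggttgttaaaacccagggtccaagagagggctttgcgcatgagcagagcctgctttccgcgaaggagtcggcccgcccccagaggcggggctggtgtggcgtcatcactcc
Cox6b2, chr7:4753095-4753344: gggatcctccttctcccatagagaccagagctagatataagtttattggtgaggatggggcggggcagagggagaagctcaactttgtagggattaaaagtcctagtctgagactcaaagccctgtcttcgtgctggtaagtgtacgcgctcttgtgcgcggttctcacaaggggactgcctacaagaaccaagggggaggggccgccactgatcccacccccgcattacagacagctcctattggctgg
The motif began 46 bases before the start in Sdhd and 232 bases before it in Ndufb6, in each case on the opposite strand, and these letters were not in the other windows. RefSeq promoters were matched to 76 of the 95 genes and gave 81 windows of 300 bases, 250 before and 50 after the start. Among them 23.5% held CCGGAAG on either strand, against 8.86% of all 32851 promoters. The NRF1 motif GCATGCGC was in 14.8% against 2.71%, and the YY1 motif AAGATGGCG in 9.88% against 1.4%. The TATA motif TATAAA was in 11.1% against 13.6%, and a full p53 response element without mismatch was in 0 member windows against 0.0731% of all. An element this rare would hardly be met in 81 windows, so nothing is read from the 0. Windows of the members that fell in all 4 restoration comparisons described below, 12 windows from 11 symbols, held the ETS motif in 16.7%, the YY1 motif in 16.7% and the NRF1 motif in 0. These matches describe the letters only.

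The labels were checked first. Trp53 stood at 10.5 to 15.3 TPM (a share of all transcripts in the library, corrected for transcript length) in the 12 libraries without restoration and at 181 to 253 TPM in the 12 with it. Its targets Cdkn1a, which encodes the cell cycle inhibitor p21, and Mdm2, which encodes the p53 ubiquitin ligase, stood at 37.5 to 145.3 and 59.0 to 82.2 TPM without restoration and at 1068 to 2540 and 554 to 1584 TPM with it. Rb1 was listed at 7.36 to 17.3 TPM without restoration and 21.1 to 68.8 TPM with it, and Rbl2 at 4.49 to 14.6 and 4.99 to 20.6 TPM. A value per gene does not separate the floxed part from the rest of the transcript, so these values do not check the deletions.

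The neuroendocrine markers of SCLC, 10 in the list, summed to 5.65 to 27.2 TPM in Type D and 16.4 to 85.9 TPM in Type V, and 6 of 10 and 5 of 10 stayed under 1 TPM in all libraries of the type. Neurod1 reached at most 0.0954 TPM and Calca 0.105, and Chga was listed at 0 throughout, while Ncam1 ranged from 4.46 to 27.3 TPM, Insm1 from 0 to 49.6 and Uchl1 from 0 to 40.9. Summed epithelial markers were 6660 to 16600 TPM in Type D and 689 to 2320 TPM in Type V, and summed fibroblast markers were 0.304 to 1.93 and 75.6 to 572 TPM. Macrophage markers summed to 7.99 to 58.5 TPM in Type D and 8.29 to 32.1 in Type V, with the defining markers Ptprc and Adgre1 at most 0.154 and 0.0449. Endothelial markers summed to at most 0.922 TPM. The epithelial sums were mostly Krt8, Krt18, Krt19 and Cdh1. Epcam overlapped between the types, at 0.435 to 4.57 TPM in Type D Control and 0.564 to 1.64 TPM in Type V Control. Cldn7 stayed under 1 TPM throughout. In the test described below, 2 of 6 epithelial markers were higher and 5 of 5 fibroblast markers lower in Type D Control, against 5.91% and 7.21% of all tested genes. Of the fibroblast markers, 0 reached 1 TPM in at least 3 Type D libraries and 5 did so in Type V. They passed the filter on low values through Type V alone. A difference was thus built into their being tested, and nothing is read from their calls. The part of these markers in the differences between types below was not tested. TPM keeps no read depth, so the depth of each library is unknown and low values carry an unknown counting error.

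The 95 genes made up 2.16 to 3.59% of all TPM. Atp5b, the catalytic beta subunit of the ATP synthase, was the highest, with a mean of 1939 TPM over the 6 Control libraries. It was followed by Cox4i1, the regulatory subunit IV of cytochrome oxidase, at 1460 TPM, Ndufa4 at 1228, Cox8a at 1097 and Cox6a1 at 1038. Core redox subunits of complex I stood lower, with 100.5 TPM for Ndufs1 and 235.8 for Ndufv1, and Sdha, the flavoprotein of complex II, stood at 232.2. Of the 95 genes, 89 reached 1 TPM in at least 3 libraries and were tested, and 6 did not: Cox7b2, Cox8b, Cox8c, Ndufa4l2, Ndufb4c and Ndufs5. Ndufs5, which encodes an accessory subunit of complex I, was listed at 0 in 23 of 24 libraries, and Ndufs5-ps, a pseudogene outside the set, at 11.65 to 23.28 TPM. How reads were shared between such near-identical copies was not tested.

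Summed by complex, the Control libraries of the types overlapped for each of the 5 complexes. The complex I assembly factors did not overlap, at 215.9 to 232.3 TPM in Type D Control and 235.9 to 301.3 TPM in Type V Control. Complex V summed to 9134 ± 870.5 TPM in Type D and 9053 ± 945.1 in Type V (SD, n = 3 each). Complex IV summed to 8054 ± 616.0 and 8601 ± 625.3 TPM in the same order. Summed over all 95 genes, Type D Control held 27510 ± 2663 TPM and Type V Control 28540 ± 1674 TPM.

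**Figure D1:**
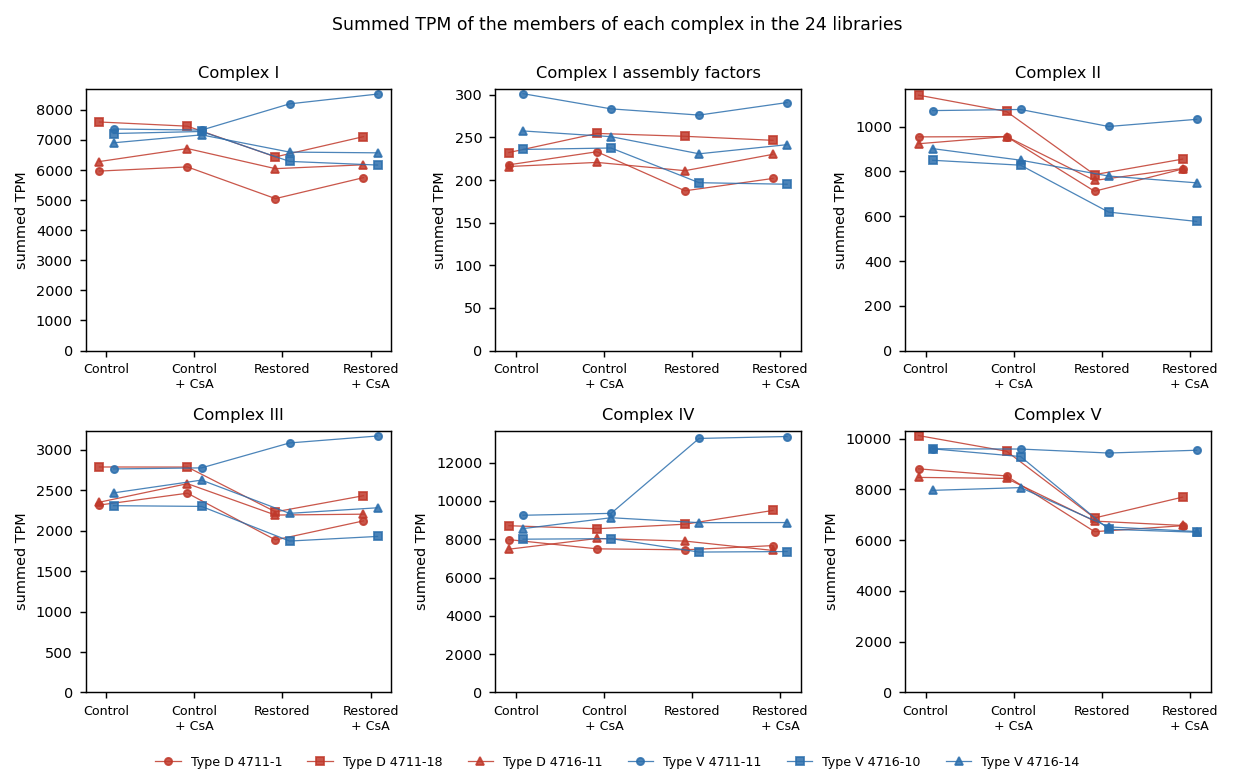
Summed TPM (y axis, from 0) of the members of each respiratory complex and of the complex I assembly factors in the 4 treatments (x axis), with 1 point per library joined by cell line, Type D in red and Type V in blue. Complex V sums in Type D lay between 8472 and 10120 TPM in Control and between 6335 and 6874 TPM in Restored, and the Type V line 4711-11 stood highest for complex IV at 13260 TPM in Restored.

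Before restoration the difference between Type D and Type V lines passed the test for Cox7a1, a cytochrome oxidase isoform, and Ndufb11, an accessory subunit of complex I, and for no other member. With limma on log2(TPM + 1), across 14104 genes tested and with an adjusted p under 0.05, 1 of the 89 members was higher and 1 was lower in Type D Control. Over all tested genes 5.91% were higher and 7.21% lower. The median log2 difference, Type D minus Type V, was −0.07 over members and −0.12 over all tested genes. Median-ratio scaling of the libraries moved the median of all genes by 0.103, to −0.0174, and that of members to 0.0454, and then 3 members were higher and 1 was lower.

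Cox7a1 encodes the heart and muscle isoform of subunit VIIa of cytochrome oxidase, whose partner Cox7a2 is the form of most tissues. It stood at 9.34, 21.7 and 16.3 TPM in Type D Control against 1.32, 1.47 and 1.83 TPM in Type V Control. All 3 Type D values lay above all 3 Type V values, and only Cox7a1 also passed a minimum of 1 on the log2 scale, against 8.83% of all genes. The difference was 2.66 on the log2(TPM + 1) scale (SE 0.66, limma, adjusted p = 0.0107). As a share of Cox7a1 and Cox7a2 together, Cox7a1 was 5.13% ± 1.59 in Type D Control and 0.479% ± 0.0932 in Type V Control (SD, n = 3 each), so Cox7a2 was the main form in both types.

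Ndufb11, an accessory subunit in the membrane arm of complex I, stood at 108, 154 and 115 TPM in Type D Control against 191, 200 and 247 TPM in Type V Control. The groups did not overlap, and the difference was −0.76 (SE 0.20, limma, adjusted p = 0.0179). Leaving out 1 line at a time gave 1 to 8 member calls: 1 without 4711-1 or without 4716-14, 5 without 4711-18, 4 without 4711-11 and 8 without 4716-10.

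With p53 restored, 1 member was higher and 6 of 89 were lower in Type D than in Type V, a lower share than the 8.04% of all tested genes that were lower, while 6.79% were higher. With no filter on low values 4 members passed. The member median was −0.16 against −0.07. Ndufb11 stood at 77.9, 105 and 121 TPM in Type D Restored and at 222, 210 and 253 TPM in Type V Restored, a difference of −1.18 (SE 0.20, limma, adjusted p = 0.000651). Ndufb10, another membrane arm subunit, stood at 119.8, 164.0 and 184.4 TPM against 299.8, 247.1 and 270.0 TPM, a difference of −0.82 (SE 0.19, limma, adjusted p = 0.00628). For both genes every Type D library lay below every Type V library.

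The other members that were lower in Type D Restored were Ndufa13, also known as a cell death regulator (−0.81, adjusted p = 0.0135), Ndufa5 (−0.82, adjusted p = 0.0463), Ndufb7 (−0.59, adjusted p = 0.0398) and Cox7b of cytochrome oxidase (−0.60, adjusted p = 0.0298), all in the limma fit and all without overlap. Of the 6 lower members, 5 were accessory subunits of complex I, of 36 members of that complex tested, and none was a core redox subunit, although all 7 core subunits had a log2 difference below 0 (median −0.27). Cox7a1 remained higher in Type D, with 7.32, 15.4 and 35.7 TPM against 2.30, 2.63 and 4.53 TPM and a difference of 2.08 (SE 0.66, limma, adjusted p = 0.0398). Together with Ndufb11 it passed the minimum of 1 on the log2 scale, 2 members in all against 9.44% of tested genes. Leaving out 1 line gave 3 to 16 calls, with 3 without 4711-1, 4716-11 or 4716-14, 11 without 4711-18 and 16 without 4716-10.

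**Figure D2:**
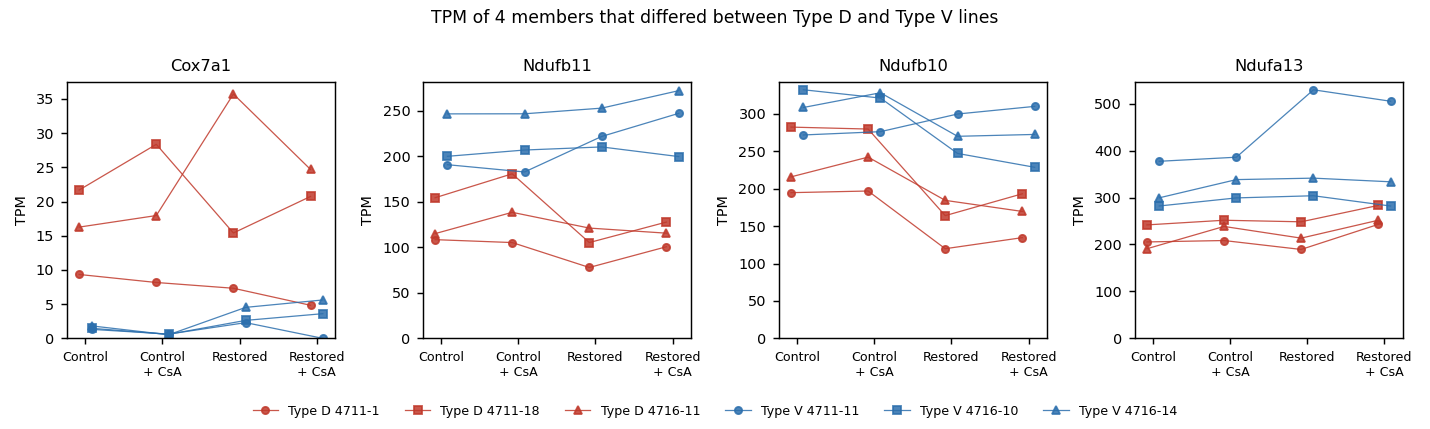
TPM in each library for Cox7a1, Ndufb11, Ndufb10 and Ndufa13, in the 4 treatments (x axis), with 1 point per library joined by cell line, Type D in red and Type V in blue. In Control, Cox7a1 lay between 9.34 and 21.7 TPM in Type D and between 1.32 and 1.83 TPM in Type V, while Ndufb11 was lower in Type D.

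On p53 restoration most subunit genes of the ATP synthase fell in Type D lines, as did members of complexes I, II and III, when the cell line was taken as a block. The change was of modest size: the member median was −0.24 on the log2 scale, against 0.07 over all tested genes. Below 0 were 65 of 89 members and 5919 of all 14104 tested genes. Without a term for the cell line 1 member, Cox6b2, rose and 5 fell, against 7.82% and 5.05% of all tested genes. With median-ratio scaling these counts were 1 and 18, and without 1 line the total of 6 became 0 (without 4711-1 or 4711-18), 1 (4716-11), 15 (4711-11), 12 (4716-10) or 4 (4716-14). Each line gave all 4 of its libraries, and with the cell line as a block 7 members rose and 38 fell, against 27.6% and 17.6% of all tested genes, and the total of 45 became 29 without 4711-1. Cox6b2 entered the test through restored libraries alone and had to differ, so nothing is read from its call. With the block it is among the members counted as rising in each restoration comparison, here and below. In these cells, fewer cells of one kind and less RNA per cell cannot be told apart.

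Cell type markers also moved on restoration. Under the block 1 epithelial marker rose and 3 fell of 6 tested in each type (medians −0.60 in Type D and −0.56 in Type V). In Type D the marker that rose was Cldn4, listed under 1 TPM in Control. Krt19 was lower in value in all 3 Type D lines and higher in all 3 Type V lines. Of 5 fibroblast markers tested 4 fell in Type V (median −1.46), and under CsA all 5 fell (median −1.85), while 0 passed in Type D, where they stood near 0. Of 4 macrophage markers tested, 2 rose under the block in Type D, 1 rose in Type V, and 0 fell. Beside these blocked counts, 27.6% of all tested genes rose and 17.6% fell in Type D. For Type V the shares were 22.8% and 17.8%, and under CsA 16.5% fell. Without the block 1 macrophage marker rose in each type, against 7.82% and 5.38% of all tested genes. This was Cd68, a lysosomal protein. Its Type D levels went from 9.58, 7.87 and 9.92 to 33.9, 29.1 and 55.3 TPM. Its Type V levels went from 10.1, 6.86 and 8.39 to 16.1, 20.1 and 31.3 TPM. The part of these markers in the changes of the members was not tested.

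Under the cell line block, 13 of 17 complex V members fell and 0 rose in Type D. Of complex I, 16 of 36 fell and 3 rose, of complex II 3 of 4 fell, and of complex III 4 of 8 fell. Of complex IV, 1 of 16 fell and 3 rose, 2 of them besides Cox6b2. These shares of rises lay below the 27.6% of all tested genes. Among assembly factors of complex I, Ndufaf3 rose and Ndufaf6 fell, of 8.

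In Type V lines the median over members was −0.13, against 0.05 over all genes. Below 0 were 55 of 89 members and 6353 of all 14104 tested genes. Without the block 1 member, Cox6b2, rose and 0 fell, against 5.38% and 4.57% of all tested genes, and 12 members, or 13.5%, had an unadjusted p under 0.05, against 22.1% of all tested genes. With median-ratio scaling 1 rose and 4 fell, and the unscaled total of 1 became 4 without 4711-11 and 2 without 4711-1, 4716-11 or 4716-14. With the block 7 rose and 23 fell, against 22.8% and 17.8%. Of complex V 8 of 17 fell, of complex I 8 of 36 fell and 4 rose, of complex II 3 of 4 fell, of complex III 2 of 8 fell, and of complex IV 0 of 16 fell and 2 rose, Cox6b2 being 1 of them. Of the assembly factors, Ndufaf3 rose and Ndufaf2 and Ndufaf6 fell.

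**Figure D3:**
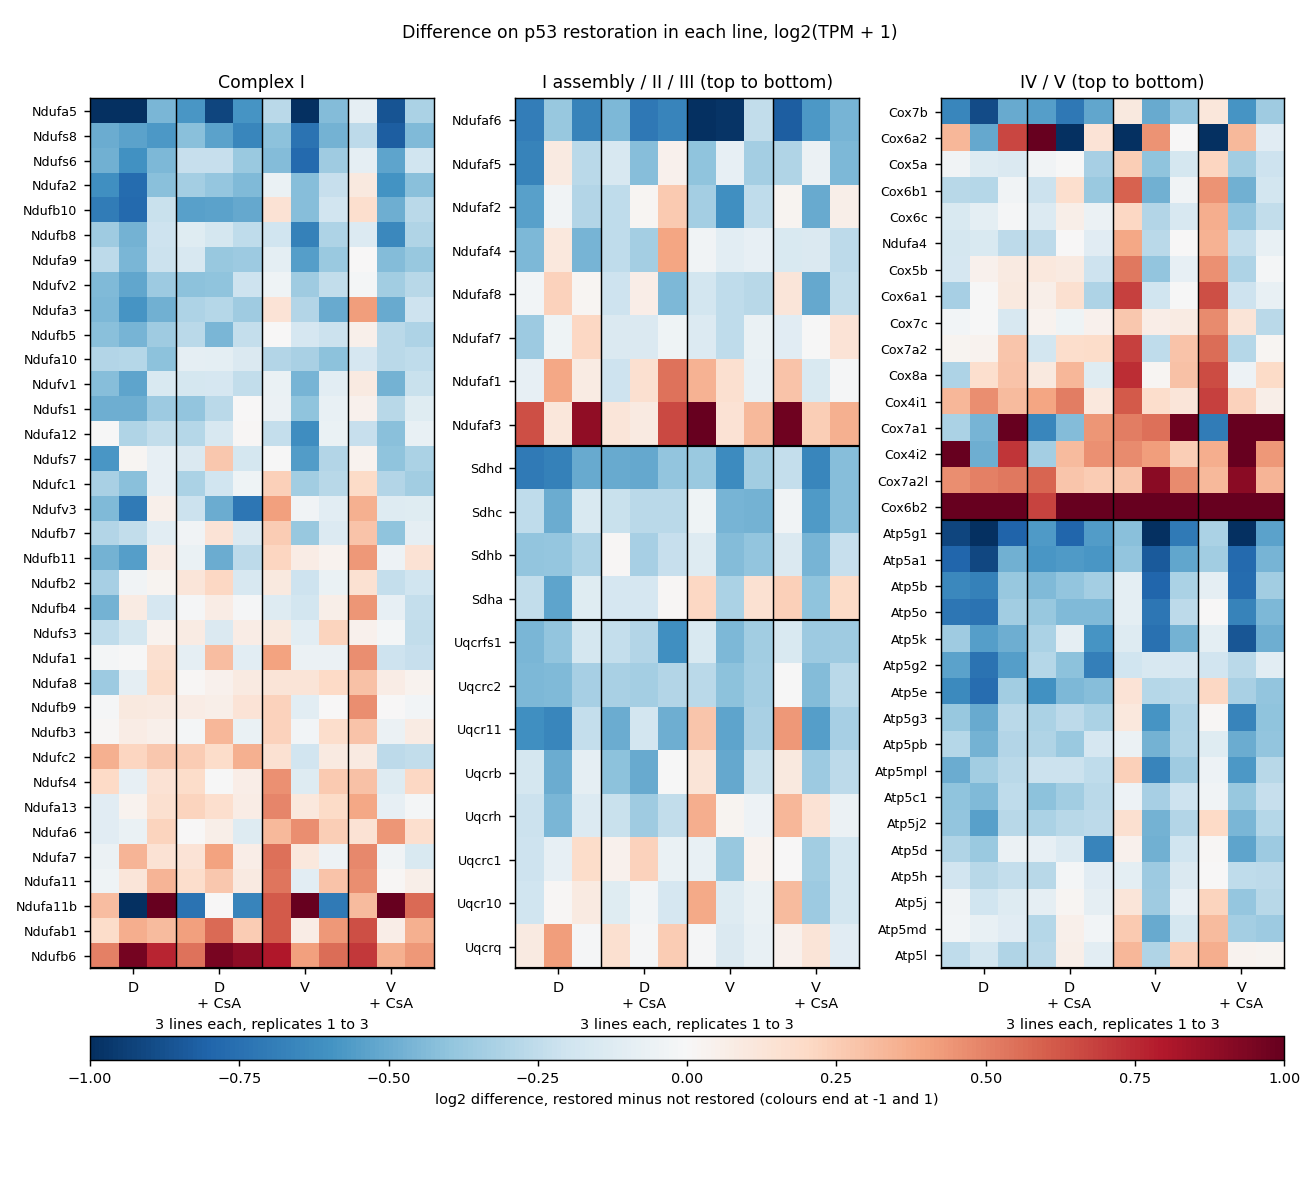
Log2 change in TPM + 1 on p53 restoration for the tested members but 1, by complex (rows), in each of the 6 lines without and with CsA (columns), in red for higher and blue for lower after restoration, with colours ending at −1 and 1. The members of complex V are mostly below 0, and line 4711-11 of Type V shows fewer decreases, with a member median of 0.13 against −0.30 and −0.14 in the other Type V lines.

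The 3 Type V lines did not respond alike. The member median was 0.13 in 4711-11, −0.30 in 4716-10 and −0.14 in 4716-14, whereas in Type D it was −0.30, −0.30 and −0.13. Summed over all 95 genes, TPM changed by 16.1%, −19.4% and −6.8% in the Type V lines and by −17.6%, −17.0% and −7.23% in the Type D lines. Without 4711-11 the blocked count for Type V was 37 members in place of 30, and without 4716-10 or 4716-14 it was 22 or 16.

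Complex V carried the largest summed decrease of the 5 complexes in Type D. Its summed TPM changed by −28.1%, −32.1% and −20.3% in the 3 Type D lines, and by −1.75%, −33.0% and −18.1% in the 3 Type V lines. Complex II changed by −25.4%, −31.1% and −17.7% in Type D and by −6.62%, −27.2% and −13.6% in Type V. Both sums fell in value in all 6 lines, least in 4711-11.

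For complex III the changes were −18.6%, −19.9% and −6.76% in Type D and 11.6%, −18.9% and −10.3% in Type V. For complex I they were −15.3%, −15.3% and −3.77%, and 11.3%, −12.9% and −4.48%. Complex IV changed by −6.67%, 0.908% and 5.66% in Type D and by 43.4%, −8.4% and 3.62% in Type V. The last complex thus had no common direction among lines of either type.

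In complex V the c ring, the rotor that protons turn, is built from 1 protein encoded by Atp5g1, Atp5g2 and Atp5g3. Atp5g1 measured 136.3, 168.4 and 136.4 TPM in Type D Control, then 71.9, 81.8 and 77.9 TPM in Type D Restored. In the Type V lines the levels were 238.1, 173.6 and 148.8 TPM in Control and 177.8, 83.4 and 90.8 TPM in Restored. Each line was lower after restoration, and in Type D the groups did not overlap.

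The change of Atp5g1 was −0.92 in Type D (SE 0.13 with the block, limma, adjusted p = 4.14e-05 with the block and 0.0586 without it) and −0.72 in Type V (SE 0.13, adjusted p = 0.000395 and 0.165). Of the TPM of the 3 c subunit genes, Atp5g1 supplied 10.9% ± 0.264 in Type D Control and 8.06% ± 0.286 in Type D Restored, and 13.3% ± 3.38 and 9.8% ± 2.79 in Type V (SD, n = 3 each). Atp5g3 was the main form in every group. All 3 c subunit genes fell in Type D under the block.

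Atp5g2 stood at 336.6, 325.6 and 308.9 TPM in Type D Control and 231.8, 194.3 and 211.0 TPM in Type D Restored, a change of −0.61 (SE 0.071 with the block, limma, adjusted p = 6.39e-06, 0.153 without). Type V Control held 210.2, 395.3 and 283.0 TPM and Type V Restored 182.7, 353.1 and 251.9 TPM, a change of −0.18 (block adjusted p = 0.0581). Every line was lower in value, but Type V did not pass.

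The F1 head makes ATP from ADP. Atp5a1, its alpha subunit, measured 1018, 1029 and 1092 TPM in Type D Control, then 585.5, 545.8 and 780.3 TPM in Type D Restored. The Type V lines had 972.2, 1076 and 741.0 TPM in Control and 738.3, 599.0 and 517.4 TPM in Restored. No Restored value reached a Control value in either type.

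Atp5a1 fell by 0.73 on the log2 scale in Type D (limma, adjusted p = 0.0167 without the block and 2.44e-05 with it) and had a value of −0.59 in Type V (adjusted p = 0.0642 without the block and 0.000221 with it). Atp5b, its catalytic partner, had values of −0.56 and −0.40 (limma, block adjusted p = 0.00181 and 0.0179, and 0.114 and 0.32 without the block). Under the block 4 of 5 F1 members fell in Type D and 3 of 5 in Type V. Of the 4 peripheral stalk members, which hold the head still, 3 fell in each type.

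**Figure D4:**
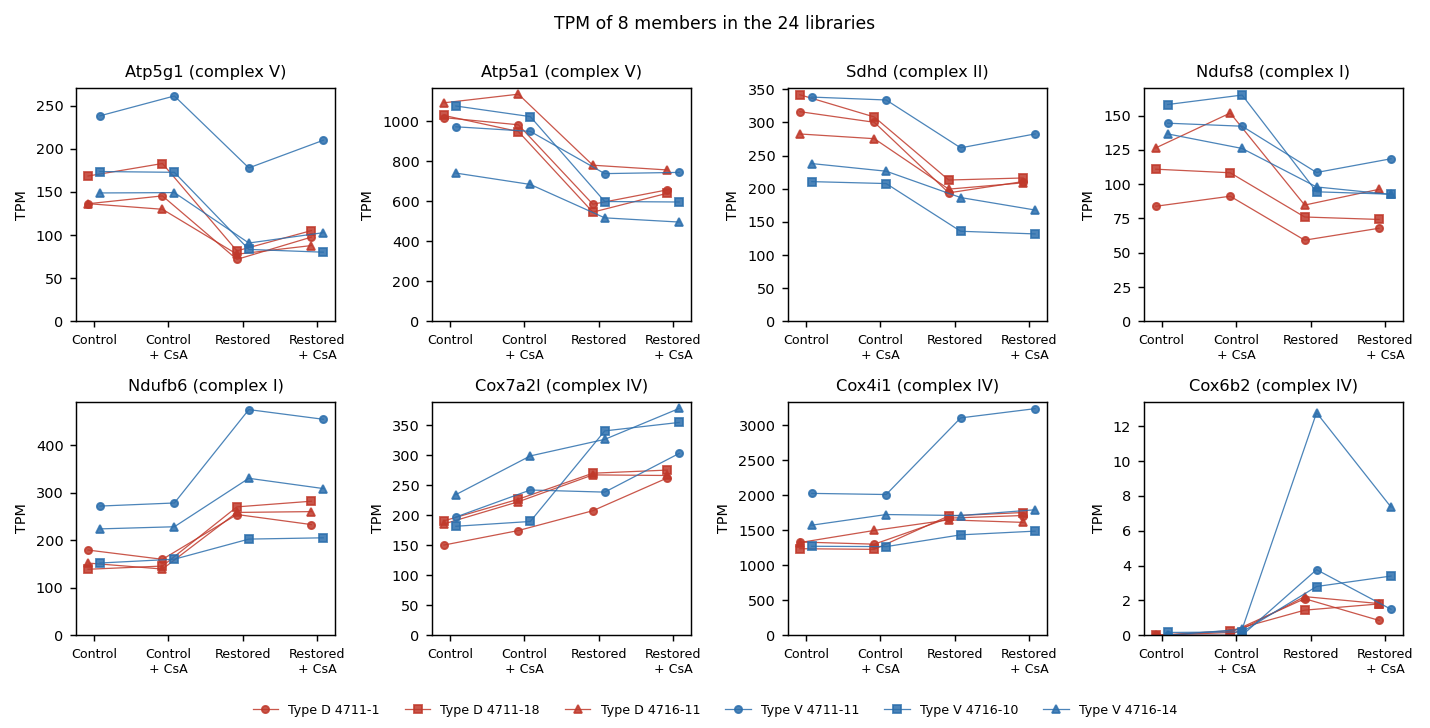
TPM in each library for 8 members (Atp5g1, Atp5a1, Sdhd, Ndufs8, Ndufb6, Cox7a2l, Cox4i1 and Cox6b2), in the 4 treatments (x axis), with lines joining the 4 libraries of a cell line, Type D in red and Type V in blue. Sdhd lay at 282.5 to 341.6 TPM in Type D Control against 193.8 to 213.1 TPM in Type D Restored, while Ndufb6 moved the other way in all 6 lines.

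Complex II oxidises succinate and is also an enzyme of the TCA cycle. Sdhd, one of its membrane anchors, stood at 316.1, 341.6 and 282.5 TPM in Type D Control and 193.8, 213.1 and 199.4 TPM in Type D Restored. In the Type V lines the levels were 338.1, 210.7 and 237.9 TPM in Control and 261.6, 135.9 and 186.7 TPM in Restored. All 6 lines were lower after restoration, without overlap in Type D.

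The change of Sdhd was −0.63 in Type D (SE 0.080 with the block, limma, adjusted p = 1.58e-05, 0.118 without) and −0.45 in Type V (SE 0.080, adjusted p = 0.000395, 0.324 without). The other anchor, Sdhc, and the iron-sulfur subunit, Sdhb, also fell in both types under the block. Sdha, which holds the flavin, had values of −0.30 (block adjusted p = 0.0506) and 0.01 (block adjusted p = 0.94) and did not pass in either type.

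In complex I the 7 nuclear core subunits carry electrons from NADH along iron-sulfur clusters toward ubiquinone. Ndufs8, which binds such clusters near the quinone site, measured 83.9, 110.9 and 126.4 TPM in Type D Control, then 59.2, 76.1 and 84.8 TPM in Type D Restored. Type V Control held 144.4, 158.0 and 136.6 TPM and Type V Restored 108.5, 94.4 and 97.97 TPM. The Type V groups did not overlap, the Type D groups did, and all 6 lines were lower.

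Ndufs8 had changes of −0.53 and −0.54 (SE 0.098 each, limma, block adjusted p = 0.000403 and 0.000442, and 0.0821 and 0.0906 without the block). Under the block 5 of the 7 core subunits fell in Type D, Ndufs1, Ndufs8, Ndufv1 and Ndufv2 among them, and 2 of 7 fell in Type V, Ndufs8 and Ndufv2. Ndufs1, the largest of them, stood at 86.97, 126.4 and 85.45 TPM in Type D Control and 61.6, 89.8 and 66.4 TPM in Type D Restored, a change of −0.45 (block adjusted p = 0.000882). In Type V its value was −0.18 (block adjusted p = 0.129).

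Ndufb6, an accessory subunit of the membrane arm, rose while most of its complex did not. It measured 179.6, 139.1 and 152.2 TPM in Type D Control, then 254.5, 270.6 and 258.9 TPM in Type D Restored. The Type V lines had 272.3, 152.3 and 224.2 TPM in Control and 475.6, 202.7 and 330.8 TPM in Restored. Each of the 6 lines was higher after restoration, and the Type D groups did not overlap.

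The rise of Ndufb6 was 0.74 in Type D (SE 0.10 with the block, limma, adjusted p = 3.72e-05, 0.109 without) and 0.59 in Type V (SE 0.10, adjusted p = 0.00033, 0.243 without). Ndufab1, the mitochondrial acyl carrier protein, which is also a subunit of complex I, rose by 0.29 and 0.37 (block adjusted p = 0.0397 and 0.0113). Its rise did not pass in all 4 restoration comparisons once median-ratio scaling was added. Ndufa5, an accessory subunit of the peripheral arm, fell by 0.88 on the log2 scale in Type D (limma, adjusted p = 0.0366 without the block), from 118.6, 210.4 and 124.1 TPM to 58.7, 91.9 and 90.2 TPM. Ndufa2, another of the same arm, fell by 0.60 (limma, adjusted p = 0.0234).

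In complex III, Uqcrc2, a core protein, fell by 0.41 on the log2 scale in Type D, from 189.2, 232.7 and 198.9 TPM to 138.4, 171.0 and 158.1 TPM (limma, adjusted p = 0.0386 without the block, 0.000516 with it). In the Type V lines the levels were 222.8, 212.4 and 201.1 TPM in Control and 184.8, 159.6 and 158.3 TPM in Restored, a value of −0.34 (adjusted p = 0.0984 without the block and 0.00231 with it). The groups did not overlap in either type. Uqcrfs1, the Rieske iron-sulfur protein that passes electrons on to cytochrome c1, had values of −0.34 and −0.32 (block adjusted p = 0.00339 and 0.00659). Uqcrc1, the other core protein, had values of −0.04 and −0.14 and did not pass (block adjusted p = 0.795 and 0.244).

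Cox6b2 of complex IV encodes a form of subunit VIb known from testis, beside the widespread Cox6b1. Every Type D Control library listed it at 0, and Type D Restored had 2.10, 1.44 and 2.22 TPM. Type V Control had 0, 0.161 and 0 TPM, and Type V Restored 3.77, 2.80 and 12.8 TPM.

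With CsA, Cox6b2 stood at 0.158, 0.258 and 0 TPM in Type D Control + CsA and at 0.854, 1.80 and 1.82 TPM in Restored + CsA, and at 0, 0.194 and 0.344 and at 1.49, 3.40 and 7.36 TPM in Type V. No restored library overlapped with a library of the same type that was not restored. The gene passed the filter on low values through restored libraries alone, so a difference was built into its being tested, and with controls listed at 0 no ratio is given. No p-value is given for it. It was the single member past a minimum of 1 on the log2 scale as well as the adjusted p, against 6.93% (Type D) and 5.29% (Type V) of all genes, and nothing is read from that. Its share of Cox6b1 and Cox6b2 together was 0.276% ± 0.0612 in Type D Restored and 1.03% ± 0.898 in Type V Restored (SD, n = 3 each), so Cox6b1 remained the main form.

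Cox7a2l, whose product links complexes III and IV in supercomplexes, stood at 150.3, 190.6 and 185.5 TPM in Type D Control and 207.5, 270.0 and 267.2 TPM in Type D Restored. Type V Control held 197.0, 181.6 and 234.3 TPM and Type V Restored 238.5, 340.5 and 326.4 TPM. All 6 lines were higher and neither type's groups overlapped. The rise was 0.50 in Type D and 0.55 in Type V (SE 0.12 each with the block, limma, adjusted p = 0.00375 and 0.00203, and 0.0763 and 0.0563 without the block).

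Cox4i1 measured 1332, 1236 and 1324 TPM in Type D Control, then 1673, 1704 and 1648 TPM in Type D Restored. The Type V lines had 2026, 1271 and 1572 TPM in Control and 3104, 1434 and 1710 TPM in Restored, the highest in line 4711-11. The Type D groups did not overlap. Cox4i1 rose by 0.37 in Type D (SE 0.12 with the block, limma, adjusted p = 0.019, 0.457 without) and had a value of 0.30 in Type V (block adjusted p = 0.0527).

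Cox7b, a small subunit that fell, stood at 324.2, 464.7 and 331.6 TPM in Type D Control and 206.2, 249.6 and 233.6 TPM in Type D Restored. The groups did not overlap, and the change was −0.68 (SE 0.18, limma, adjusted p = 0.015 without the block). In Type V it stood at 370.3, 419.3 and 469.4 TPM and at 397.2, 295.4 and 357.0 TPM, a value of −0.27 (block adjusted p = 0.0987), with line 4711-11 higher and the other lines lower. Cox5a, another subunit of complex IV, had values of −0.10 and −0.11 (block adjusted p = 0.493 and 0.466).

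Whether the types differed in the response was tested as a difference of differences. Without the block 0 members passed in limma, 0 had an unadjusted p under 0.05 against 3.83% of all tested genes, and 0.0284% of all tested genes passed. With the block 1 member passed, against 5.57% of all tested genes, and 14 members, or 15.7%, had an unadjusted p under 0.05, against 22.4%. No complex I member passed this test in either fit. That member was Atp5g2, with a difference of −0.43, Type D minus Type V (adjusted p = 0.0223), which did not pass in 5 of the 6 fits that left out 1 line and passed without 4716-11. The member median of the difference was −0.10 against 0.04 over all genes. 

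CsA was added to ask which changes depend on cyclophilins. On restoration under CsA, the difference between Restored + CsA and Control + CsA used none of the libraries above, although it used the same lines. Its p-values rest on a spread estimated over all 24 libraries, so its calls are not independent of those above. Without the block 0 members rose and 1 fell in Type D, against 5.98% and 2.91% of all tested genes. With median-ratio scaling 0 rose and 9 fell. In Type V 1, Cox6b2, rose and 0 fell, against 4.3% and 3.4%, with 7 members, or 7.87%, at an unadjusted p under 0.05, against 19.5% of all tested genes. The Type D total became 0 without any 1 of the Type D lines, 6 without 4711-11 and 2 without 4716-10 or 4716-14, and the Type V total became 4 without 4711-11.

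With the block 6 members rose and 24 fell in Type D under CsA, against 27.2% and 14.0% of all tested genes, and with median-ratio scaling added 3 rose and 43 fell. In Type V 7 rose and 23 fell, against 20.6% and 16.5%. The total of 30 in each type became 16 in Type D without 4711-18, and in Type V 11 without 4716-10 and 15 without 4716-14. The member medians were −0.14 in Type D and −0.14 in Type V, against 0.09 and 0.04 over all tested genes. In Type D, 8 of 17 complex V members, 10 of 36 complex I members and 1 of 4 complex II members fell, and in Type V 9, 8 and 3. Complex IV had 3 members that rose in each type, Cox4i1 and Cox7a2l besides Cox6b2.

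All 24 members that fell in Type D under CsA had also fallen without it, 63.2% of the 38, and so had the 6 that rose, 85.7% of the 7. Over all tested genes the genes that fell in both were 68.0% of the list without CsA and 85.8% of that with it, and the genes that rose in both 80.7% and 82.1%. In Type V 19 members fell both without and with CsA, 82.6% of each list, and 6 rose in both, 85.7% of each, against 79.9% and 86.3% of the lists over all genes for falls and 79.2% and 87.6% for rises. Without CsA, Type D and Type V shared 21 members that fell, 55.3% of the Type D list and 91.3% of the Type V list, and 5 that rose, 71.4% of each. Over all genes the shared falls were 60.9% of the Type D list and 60.3% of the Type V list, and the shared rises 57.5% and 69.6%. No member rose in one type and fell in the other, as did 0.454% of all tested genes. Each overlap of members that rose includes Cox6b2, from which nothing is read. Whether the overlaps of members differed from those of all genes was not tested.

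Across all 4 restoration comparisons under the block, 14 of 89 members fell, against 7.22% of all tested genes: Atp5a1, Atp5b, Atp5c1, Atp5g1, Atp5o and Atp5pb of complex V, Ndufa9, Ndufs6, Ndufs8 and Ndufv2 of complex I, the assembly factor Ndufaf6, Sdhd of complex II, and Uqcrc2 and Uqcrfs1 of complex III. Besides Cox6b2, those that rose were Ndufab1, Ndufb6 and Cox7a2l, 4 members with it, against 12.5% of all tested genes. Adding median-ratio scaling left the same 14 that fell and, besides Cox6b2, Ndufb6 as the one that rose. Leaving out 1 line at a time left 5 to 14 that fell, fewest without 4716-10 or 4716-14 (5 each), then 6 without 4711-1, 7 without 4711-18, 8 without 4716-11 and 14 without 4711-11. It left 1 to 4 that rose, Cox6b2 included. Atp5a1, Atp5g1, Ndufs8 and Sdhd fell, and Ndufb6 rose, in every one of these fits. The 4 comparisons share cell lines and the estimate of the spread, so they are not independent of each other.

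Counted by line instead, 19 members were lower in value in all 12 line comparisons, 6 lines without and with CsA, and 6 were higher in all 12: Cox4i1, Cox6b2, Cox7a2l, Ndufab1, Ndufaf3 and Ndufb6. Over all tested genes 1531 (10.9%) were lower and 2548 (18.1%) higher in all 12. The summed TPM of complex V changed under CsA by −23.0%, −19.0% and −22.0% in Type D and by −0.49%, −32.1% and −21.4% in Type V.

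Atp5g1 and Ndufb6 had the lowest value of complex V and the highest of complex I under CsA in Type D, where the member median was −0.14. Atp5g1 stood at 145.4, 182.9 and 129.9 TPM in Type D Control + CsA and at 97.7, 105.2 and 87.9 TPM in Restored + CsA, a change of −0.64 (SE 0.13 with the block, limma, adjusted p = 0.00108, 0.234 without). Ndufb6 stood at 160.1, 145.9 and 139.6 TPM and at 233.3, 282.5 and 260.6 TPM, a rise of 0.80 (SE 0.10 with the block, limma, adjusted p = 2.31e-05, 0.101 without). For both genes the groups did not overlap, in the same direction as without CsA. Cox7b fell by 0.60 on the log2 scale in Type D under CsA (limma, adjusted p = 0.0425 without the block).

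For CsA itself 1 member passed, in Type D with p53 restored and under the block. In Control cells limma without the block called 0 members in Type D and 0 in Type V, against 0.0% and 0.0% of all tested genes, with 1 and 0 at an unadjusted p under 0.05, against 0.808% and 0.383% of all genes. With the block the members were again 0 and 0, against 0.0142% and 0.0%, with 3 (3.37%) and 0 at an unadjusted p under 0.05, against 6.76% and 4.32%. With p53 restored, without the block, the counts were again 0 in Type D and 0 in Type V, against 0.0142% and 0.0%, with 2 (2.25%) and 0 at an unadjusted p under 0.05, against 1.62% and 0.709%. With the block Type D had 1 and Type V 0, against 0.411% and 0.0%, with 12 (13.5%) and 2 (2.25%) at an unadjusted p under 0.05, against 12.6% and 4.49%.

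The member that passed was Uqcrq, the ubiquinone-binding protein QP-C of complex III. It stood at 165.5, 214.0 and 138.1 TPM in Type D Restored and at 263.5, 239.1 and 242.1 TPM in Restored + CsA, a rise of 0.54 (SE 0.097 with the block, limma, adjusted p = 0.0252, 1.0 without). In Control cells of Type D it stood at 155.1, 160.2 and 139.0 TPM without CsA and at 235.2, 241.1 and 203.3 TPM with it, a value of 0.58 (block adjusted p = 0.0793). Neither pair of Type D groups overlapped, but with p53 restored the call was lost without 4711-1 (block adjusted p = 0.53), 4716-11 (0.24), 4711-11 (0.0582) or 4716-14 (0.0615). In Type V the values were 0.20 in Control and 0.30 with p53 restored (block adjusted p = 1.0 and 0.812). The member median for CsA with p53 restored in Type D was 0.09, against 0.004 over all tested genes. Of 89 members 68 were above 0, and 1 of them passed, under the block. Whether the count above 0 differed from that of all tested genes was not tested.

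**Figure D5:**
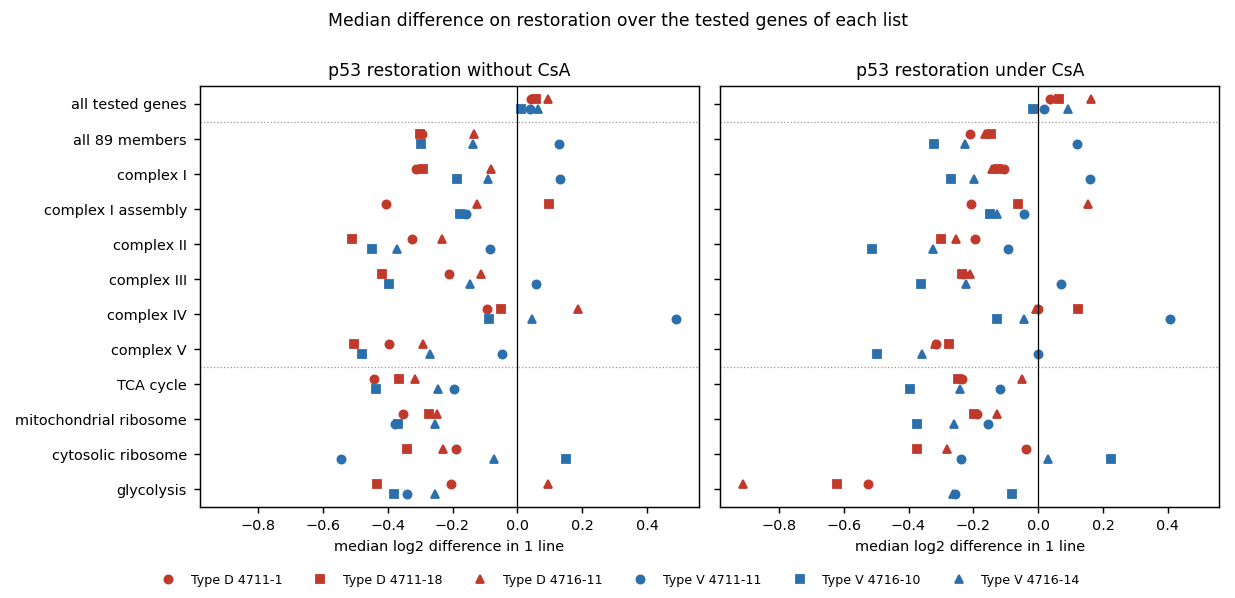
Median log2 difference on p53 restoration (x axis) over the members, each complex, other gene lists and all tested genes (rows), without CsA on the left and under CsA on the right, with 1 point per cell line, Type D in red and Type V in blue. The TCA cycle and mitochondrial ribosome medians lie below 0 in every line, and the members in every line but 4711-11 (0.13 without CsA and 0.12 with it).

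Other mitochondrial gene groups were described in the same way, beside the 27.6% (Type D) and 22.8% (Type V) of all tested genes that rose under the block and the 17.6% and 17.8% that fell. Of 18 TCA cycle genes 0 rose in both types and 12 fell in Type D and 13 in Type V under the block, with medians of −0.37 and −0.31. Idh2, the mitochondrial NADP-dependent isocitrate dehydrogenase, fell by 0.95 on the log2 scale in Type D (limma, adjusted p = 0.00571 without the block). Of 78 mitochondrial ribosomal protein genes, which translate the subunits encoded in mitochondrial DNA, 1 rose and 49 fell in Type D and 0 rose and 45 fell in Type V under the block, with medians of −0.29 and −0.31. Cytosolic ribosomal protein genes, 81 tested, had medians of −0.25 and −0.17, with 1 up and 29 down in Type D and 4 up and 17 down in Type V under the block. The medians of these 3 lists, like that of the members, lay below those of all tested genes in both types.

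Of 18 glycolysis genes tested, 7 were higher and 1 was lower in Type D Control, against 5.91% and 7.21% of all tested genes, with a median of 0.96. In Type D Restored 10 were higher and 1 lower, against 6.79% and 8.04%, with a median of 1.09. On restoration their medians were −0.17 in Type D and −0.39 in Type V, and 3 rose and 6 fell, and 2 rose and 7 fell, under the block.

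Assembly factors outside the set were counted first without the block. On restoration, 0 of 8 passed for complex I in either type. Of 10 for complexes II and III, 1 rose and 1 fell in each type. Of 19 for complex IV and 4 for complex V, 0 rose and 1 of each list fell, in each type. Of all tested genes 7.82% rose and 5.05% fell in Type D, and 5.38% and 4.57% in Type V. Under the block, for complex I, complexes II and III, complex IV and complex V in that order, 1, 2, 2 and 0 rose in Type D. In the same order 2, 1, 6 and 2 fell. In Type V 0, 3, 2 and 0 rose and 1, 1, 5 and 2 fell. Of all tested genes 27.6% rose and 17.6% fell under the block in Type D, and 22.8% and 17.8% in Type V. Fmc1, which is required to build the F1 part of complex V, fell by 1.46 on the log2 scale in Type D and by 1.13 in Type V (limma, adjusted p = 0.000865 and 0.00848 without the block). Coa6, which helps deliver copper to complex IV, fell by 0.56 and 0.52 (adjusted p = 0.00971 and 0.0183). Sdhaf1, which helps insert iron-sulfur clusters into complex II, rose by 0.85 and 0.81 (adjusted p = 0.0119 and 0.0189), while Uqcc2, which helps make cytochrome b of complex III, fell by 0.64 and 0.76 (adjusted p = 0.0225 and 0.00877). Cyc1, cytochrome c1 of complex III, which the symbol rule leaves out, measured 379.1, 392.3 and 350.3 TPM in Type D Control, then 236.5, 236.3 and 287.3 TPM in Type D Restored, a change of −0.56 (limma, block adjusted p = 0.00156, 0.0664 without).

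Of 12 tested regulators of mitochondrial biogenesis, 2 rose and 0 fell in Type D without the block, against 7.82% and 5.05% of all tested genes. In Type V 1 rose and 1 fell, against 5.38% and 4.57%. With the block 3 rose and 0 fell in Type D, against 27.6% and 17.6%. The block gave 2 that rose and 2 that fell in Type V, against 22.8% and 17.8%. Esrra, which encodes the nuclear receptor ERRα, an activator of respiratory genes, stood at 82.6, 56.8 and 65.0 TPM in Type D Control and 211.3, 173.8 and 179.9 TPM in Type D Restored. In Type V it stood at 44.3, 46.1 and 39.4 TPM and at 193.2, 125.7 and 147.2 TPM. Its groups lay far apart in both types, with rises of 1.47 and 1.80 (SE 0.18 each, limma, adjusted p = 1.55e-05 and 2.15e-06 without the block), opposite in direction to most members. Gabpb1, a subunit of GABP, rose by 0.71 in Type D (limma, adjusted p = 0.00133), and Nrf1, which binds the NRF1 motif, fell by 0.47 in Type V (adjusted p = 0.0472).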

How the data were processed

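Per the labels and the study's methods, stranded mRNA libraries were sequenced from single reads, and the deposited values are TPM per gene, computed by the authors. The methods name kallisto or HISAT2, and mm10 or GRCm39, and which gave these values is not given in the sources used here. TPM sums to 1000000 in each library and holds no read depth. Cell line, treatment and time were taken from the labels, and the type of each line from the study's text. The members, their complexes and all gene lists were chosen with earlier results of these data known.

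Genes at 1 TPM in at least 3 libraries (14104 of 25239) entered a limma fit (version 3.58.1, R 4.3.3) of log2(TPM + 1), pseudocount 1, with 1 coefficient per group over all 24 libraries and a trended variance. Tests were two-sided, p-values were adjusted by Benjamini-Hochberg over all tested genes, and a gene passed at 0.05. Fold changes on this scale understate the change of low genes. "Lower" or "higher" between types and "fell" or "rose" mean passed, in the fit named. The cell line block used the same groups plus a term per line. Same-numbered libraries of a type come from the same cell line per the labels, and their deviations from group means correlated at 0.599 to 0.929 (median 0.76, 36 pairs), against −0.727 to 0.0438 between lines (96 pairs). No library columns were identical. Comparisons between types cannot take this block, so their p-values treat the libraries of a line as independent although they are correlated.

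In each comparison the genes named were, per complex, up to 3 of the largest rises and falls among members that passed in the same direction in all lines, core members, isoform pairs and members below 1 TPM. Members named from the fit with the cell line block were added after their values were seen. The alternatives tried were no filter, a minimum of 5 TPM, a pseudocount of 0.1, median-ratio scaling, the block and leaving out each line. Scaling with the block and leaving out lines under the block were added after seeing the data. The scripts were tested on simulated data. Windows of sequence are from RefSeq tables, and 19 members had none matched. The values of 1 member and of 1 marker are not reported here.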

Additional observations from a re-analysis of the deposited data

Results flagged for a closer look

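Restoration of p53 changed Atp5g2, a gene for the c subunit of the ATP synthase, by −0.61 in Type D and by −0.18 in Type V, and the difference of −0.43 passed in limma with the cell line block (adjusted p = 0.0223), which is why it is listed. Without the block the adjusted p was 1.0, and under the block it was 0.066 without 4711-1, 0.137 without 4711-18, 0.071 without 4711-11, 0.0534 without 4716-10 and 0.0735 without 4716-14. All 3 Type D values lay below all 3 Type V values.

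For Ndufaf3, a complex I assembly factor, the difference made by CsA with p53 restored was below 0 in all 3 Type D lines (mean −0.17) and above 0 in all 3 Type V lines (mean 0.09), a difference of −0.27. This was picked out because the lines of the types moved in opposite ways, and the difference itself was not tested. No share of members or of all tested genes with such a pattern is given, so nothing is read from it. Groups of 3 libraries are too small for a check of single libraries that stand apart.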

How the results depend on the processing

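All p-values here are from limma and counts are members that passed of 89. Type D minus Type V in Control gave 2, 4 with median-ratio scaling and 1 to 8 without 1 line, and in Restored 7, 4 with no filter and 3 to 16 without 1 line. Restoration in Type D gave 6, 19 with scaling, 45 with the replicate block (pairing by cell line), 53 with block and scaling, 0 to 15 without 1 line and 29 to 49 without 1 line under the block. Restoration in Type V gave 1, 5 with scaling, 30 with the block, 30 with block and scaling, 1 to 4 without 1 line and 16 to 37 without 1 line under the block. Under CsA, Type D gave 1, 2 with a pseudocount of 0.1, 0 with no filter, 9 with scaling, 30 with the block, 46 with block and scaling, 0 to 6 without 1 line and 16 to 40 without 1 line under the block. Under CsA, Type V gave 1, 0 with a minimum of 5 TPM, which removed Cox6b2, 30 with the block, 33 with block and scaling, 1 to 4 without 1 line and 11 to 45 without 1 line under the block. The difference between types gave 0, 1 with the block, 1 with block and scaling, and 0 to 4 without 1 line under the block. CsA with p53 restored in Type D gave 0, 1 with the block, 1 with block and scaling, and 0 to 1 without 1 line under the block. The other CsA comparisons gave 0 in every setting run. The causes of these shifts were not tested. Of the members whose changes are given, those that passed kept their direction in every setting run. Among those that did not pass, Sdha on restoration in Type V (0.01) became −0.0153 with scaling, and −0.0819 to 0.182 without 1 line, below 0 without 4711-11 or 4716-14. Uqcrc1 in Type D (−0.04) became −0.145 to 0.0482, above 0 without 4711-1, and Cox5a in Type V (−0.11) became −0.288 to 0.0371, above 0 without 4716-10, each alike under the block. Scaling moved the member median on restoration in Type D from −0.24 to −0.34, and under CsA from −0.14 to −0.28. TPM keeps no depth, so the error of low values such as those of Cox6b2 is unknown.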
